A study of Mus musculus with 4 samples.

Results

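A set of 10 genes by which cells report and restrain ERK signalling were followed in mouse haploid embryonic stem cells (haESCs) treated with RDF or DMSO. They are the dual-specificity phosphatase genes Dusp1, Dusp4, Dusp5 and Dusp6, the Sprouty and Spred genes Spry1, Spry2, Spry4 and Spred1, and the Ets factor genes Etv4 and Etv5. The genes were chosen by symbol, with earlier results of these data known, and all 10 were found among the 23235 symbols measured. The samples were HG165, a haESC line with a paternal genome only (androgenetic), and comprised 2 DMSO-treated and 2 RDF-treated samples. RDF is a cocktail of Repsox, which blocks TGF-β signalling, DMH1, which blocks BMP4 signalling, and Forskolin, which activates adenylate cyclase. DMSO is the solvent and served as the control. By the general culture description haESCs grew in ES medium with serum and leukemia inhibitory factor, which lacks the MEK inhibitor PD0325901 of 2i medium. The labels name feeder cells in a general way, while the methods restrict them to a few assays among which RNA sequencing is not listed. How much of each compound these 4 samples received, and for how long, is not given in the sources used here, which do not say whether the 2 samples of a group came from separate cultures. The p-values below therefore measure only the spread between these samples, which may be technical.

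ERK is the last kinase of the cascade that runs from receptor tyrosine kinases through Ras, Raf and MEK. In mouse embryonic stem cells (ESCs) the cascade is driven largely by FGF4 made by the cells themselves, and it promotes the exit from naïve pluripotency. Active ERK induces its own inhibitors, which makes their transcripts a common readout of the pathway. The Dusp proteins remove phosphate from ERK and related kinases, the Sprouty and Spred proteins act upstream on receptors, Ras and Raf, and Etv4 and Etv5 are transcription factors of the PEA3 group induced by FGF signalling. Several of these genes, Dusp1 first among them, also respond to cyclic AMP, growth factors or stress.

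The stretches before the start sites of Dusp1, Dusp5 and Spry2 are shown because the first holds a cyclic AMP response element, the second a pair of serum response factor (SRF) CArG boxes, and the third belongs to the gene with the largest rise on the log2(FPKM + 1) scale and holds no motif searched. They are promoter windows from RefSeq, placed on the mouse build mm9 by exact match and ended where the annotated gene begins. They read 5′ to 3′ on the strand of the gene, and capitals mark the motifs. Dusp1 is read on the minus strand from chr17:26645465-26645667, Dusp5 on the plus strand from chr19:53603385-53603598, and Spry2 on the minus strand from chr14:106296037-106296286.
Dusp1: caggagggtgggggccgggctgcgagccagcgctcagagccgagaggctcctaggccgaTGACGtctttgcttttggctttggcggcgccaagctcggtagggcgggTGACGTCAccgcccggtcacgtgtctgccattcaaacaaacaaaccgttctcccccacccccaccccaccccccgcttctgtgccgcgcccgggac
Dusp5: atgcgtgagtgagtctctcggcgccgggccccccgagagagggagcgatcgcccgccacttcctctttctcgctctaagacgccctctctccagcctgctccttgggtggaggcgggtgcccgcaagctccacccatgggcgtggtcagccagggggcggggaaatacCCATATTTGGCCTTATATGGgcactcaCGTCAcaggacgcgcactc
Spry2: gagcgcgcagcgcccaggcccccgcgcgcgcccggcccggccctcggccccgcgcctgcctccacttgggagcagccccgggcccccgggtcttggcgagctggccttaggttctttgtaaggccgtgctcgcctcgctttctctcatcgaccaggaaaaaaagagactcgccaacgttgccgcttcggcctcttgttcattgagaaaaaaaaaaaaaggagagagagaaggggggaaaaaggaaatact

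The windows of 7 members were in the RefSeq table (build GRCm38.p6), as 8 windows of 250 bases before to 50 bases after a start site. The full cyclic AMP response element TGACGTCA was found at position -143 from the Dusp1 start site and in no other member's window, and 1.79% of all 32851 windows hold it. Its core TGACG, which also lies within the full element, was found in the windows of Dusp1 and Dusp5, against 20.8% of all windows. The CArG box occurred in the Dusp5 window alone among the members, at positions -82 and -72, and 1.63% of all windows hold it. The Ets motif CCGGAAG, the AP-1 motif TGANTCA and the Smad motif GTCTAGAC were searched on both strands as well and were found in 0 of the 8 windows. Of all windows, 8.86%, 7.81% and 0.213% hold them, so their absence from 8 windows says little. A match is a string of letters in a short window and does not show binding. The member windows had a median GC content of 65.5%, with a range from 57.3% to 74%, against a median of 52.7% over all windows. The quartiles of all windows were 45.7% and 61.7%. The Dusp6 window (57.3%) and an Etv5 window (60%) lay between them, and the other member windows lay above the upper quartile.

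Of the 10 genes, 8 were higher and 1 was lower in RDF-treated cells at an adjusted p under 0.05, from limma on log2(FPKM + 1) with Benjamini-Hochberg adjustment over the 11733 genes whose mean reached 1 FPKM. FPKM are fragments scaled to transcript length and library size, so levels of different genes can be compared, but only roughly. All 10 members passed the filter. Over all genes tested, 13.3% were higher and 8.28% were lower by the same test, 21.6% in all. Scaled to a sum of 1000000 per sample, calls over all genes moved from 1561 higher and 972 lower to 1825 and 701. The median log2 fold change of the members was 0.69, against 0.03 over all genes tested. The mean FPKM of 4 members, Dusp5, Dusp6, Spry2 and Spry4, was at least 2-fold higher in RDF, as it was for 1.37% of all genes tested. Both RDF values lay above both DMSO values for 9 members and below them for Etv5. This separation is common in these data, as 37.1% of all genes had both RDF values above and 28.5% had both below.

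**Figure D1:**
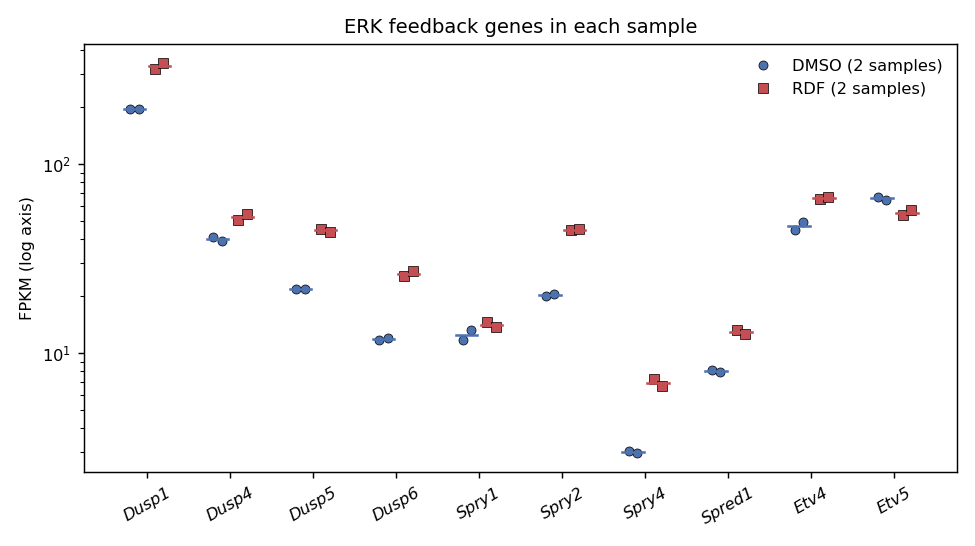
FPKM (log axis) of the 10 ERK feedback genes in each of the 4 samples; circles are the 2 DMSO samples, squares the 2 RDF samples and short lines the group means. The squares lie above the circles for 9 genes and below them for Etv5, and the gap is smallest for Spry1.

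The phosphatase genes of the set were all higher in RDF, by unequal amounts. Dusp1, on chromosome 17 from 26642535 to 26645464 (all gene positions are on mm9), encodes a nuclear phosphatase of ERK, p38 and JNK that is transcribed within minutes of a stimulus. It was the most abundant member, with 196 FPKM in both DMSO samples, against 320 and 341 with RDF. The RDF values were at least 1.64-fold above the DMSO values, and the log2 fold change was 0.75 ± 0.0575 (SE) at an adjusted p of 0.00141. Dusp5, on chromosome 19 from 53603599 to 53616921, encodes a nuclear phosphatase with a preference for ERK. Its DMSO samples had 21.9 FPKM each and its RDF samples 45.4 and 43.8 FPKM. Both RDF samples were thus at about 2 times the DMSO level, a log2 fold change of 1.00 ± 0.0562 (SE) at an adjusted p of 0.000615. Dusp6, on chromosome 10 from 98725865 to 98730122, encodes the cytoplasmic ERK phosphatase that is a standard reporter of FGF signalling. It had 11.7 and 12.0 FPKM with DMSO against 25.5 and 27.2 with RDF. Dusp6 showed the largest change of the phosphatases, a log2 fold change of 1.09 ± 0.0661 (SE) at an adjusted p of 0.000774.

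Dusp4, on chromosome 8 from 35870351 to 35882948, encodes another nuclear phosphatase and changed least among the members of its family. It had 41.0 and 39.2 FPKM with DMSO against 50.5 and 54.2 with RDF. The log2 fold change was 0.37 ± 0.0616 (SE) at an adjusted p of 0.011, and without RDF replicate 1 or 2 the adjusted p was 0.054 or 0.0822. The 95% intervals of the log2 fold change ran from 0.22 to 0.52 for Dusp4 and from 0.86 to 1.13 for Dusp5, without overlap. The Dusp4 transcript was 1.88 and 1.79 times as abundant as Dusp5 in the DMSO samples, and 1.11 and 1.24 times in the RDF samples. The share of Dusp1 in the summed FPKM of these 4 phosphatase genes was nearly constant, at 72.4% and 72.8% in DMSO and 72.5% and 73.1% in RDF. This holds within the set only. The sum leaves out other phosphatase genes, among them Dusp9 with a mean of 147 FPKM in both groups.

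Of the Sprouty genes, Spry2 and Spry4 were more than doubled while Spry1 was not called. Sprouty proteins block receptor tyrosine kinase signals on the way to Raf. Spry2, on chromosome 14 from 106291166 to 106296036, had 20.1 and 20.4 FPKM with DMSO against 44.5 and 45.5 with RDF. The samples of a group differed little, and the rise was the largest among the members on the log2(FPKM + 1) scale, a log2 fold change of 1.11 ± 0.0556 (SE) at an adjusted p of 0.000429. By mean FPKM, the fold was 2.33 for Spry4, 2.23 for Dusp6 and 2.22 for Spry2. With a pseudocount of 0.1 the log2 fold change was 1.19 for Spry4 and 1.15 for both Spry2 and Dusp6. On the log2(FPKM + 1) scale Spry2 ranked 53 among the rises of the 11733 genes, with Dusp6 at 56, Spry4 at 75 and Dusp5 at 76. Spry4, on chromosome 18 from 38745922 to 38760922, was the least abundant member, with 3.02 and 2.96 FPKM with DMSO against 7.26 and 6.67 with RDF. Its log2 fold change was 1.00 ± 0.089 (SE) at an adjusted p of 0.00215. As its level is low, the pseudocount of 1 reduces this value.

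Spry1, on chromosome 3 from 37538869 to 37543520, had 11.7 and 13.3 FPKM with DMSO against 14.5 and 13.7 with RDF. The lower RDF value exceeded the higher DMSO value by a factor of 1.03 only. Its log2 fold change of 0.16 did not pass the test (adjusted p = 0.198), and the 95% interval from -0.04 to 0.37 includes both 0 and a small rise. This interval lies below those of Spry2, from 0.98 to 1.25, and of Spry4, from 0.78 to 1.21. The ratio of Spry2 to Spry1 was 1.71 and 1.54 in the DMSO samples and 3.06 and 3.32 in the RDF samples. In contrast, the ratio of Spry2 to Spry4 was 6.65 and 6.90 in DMSO and 6.13 and 6.83 in RDF, so these ranges overlapped.

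Spred1, on chromosome 2 from 116947110 to 117008015, encodes a Sprouty-related protein that brings neurofibromin, a Ras inactivator, to the membrane. It had 8.14 and 7.91 FPKM with DMSO against 13.2 and 12.6 with RDF, a log2 fold change of 0.62 ± 0.071 (SE) at an adjusted p of 0.00397. Within the summed FPKM of the 4 Sprouty and Spred members, Spry2 went from 46.8% and 45.8% to 56.0% and 58.0%, and Spry1 went from 27.3% and 29.8% to 18.3% and 17.5%. The sum itself was 43.0 and 44.5 FPKM with DMSO against 79.4 and 78.5 with RDF.

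**Figure D2:**
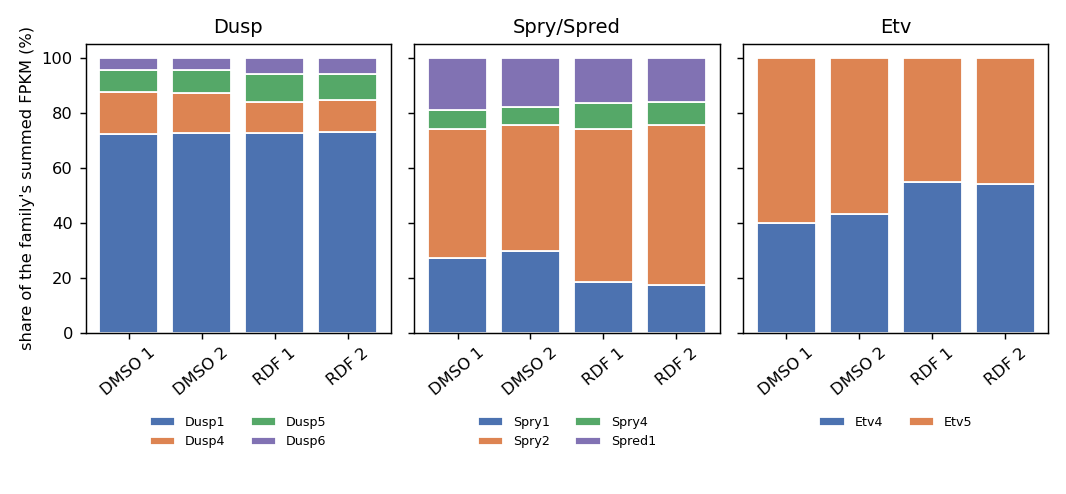
Share of each member in the summed FPKM of the members of its family (percent, stacked bars from 0 to 100), for the 2 DMSO and 2 RDF samples in 3 panels. Relatives outside the set are not in the sums. Dusp1 holds between 72.4% and 73.1% of the phosphatase sum in every sample, Spry2 grows against Spry1, and Etv4 passes Etv5 in both RDF samples.

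The 2 Etv genes went in opposite directions. Etv4, on chromosome 11 from 101631056 to 101646685, had 44.7 and 49.4 FPKM with DMSO against 65.3 and 67.1 with RDF. The log2 fold change was 0.48 ± 0.066 (SE) at an adjusted p of 0.00654, and without RDF replicate 1 or 2 the adjusted p was 0.0559 or 0.0671. Etv5, on chromosome 16 from 22381382 to 22439792, had 67.2 and 64.9 FPKM with DMSO against 53.5 and 57.0 with RDF. Both RDF values were below both DMSO values, with a log2 fold change of -0.25 ± 0.0586 (SE) at an adjusted p of 0.0304. The fall of Etv5 was small and its call was lost in 7 of 12 alternatives, among them the scaling to a sum of 1000000, with an adjusted p of 0.0978, and the omission of any single sample, with an adjusted p between 0.0566 and 0.145. The ratio of Etv5 to Etv4 was 1.5 and 1.31 in the DMSO samples and 0.82 and 0.85 in the RDF samples. The summed FPKM of both genes was 112 and 114 in DMSO and 119 and 124 in RDF.

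**Figure D3:**
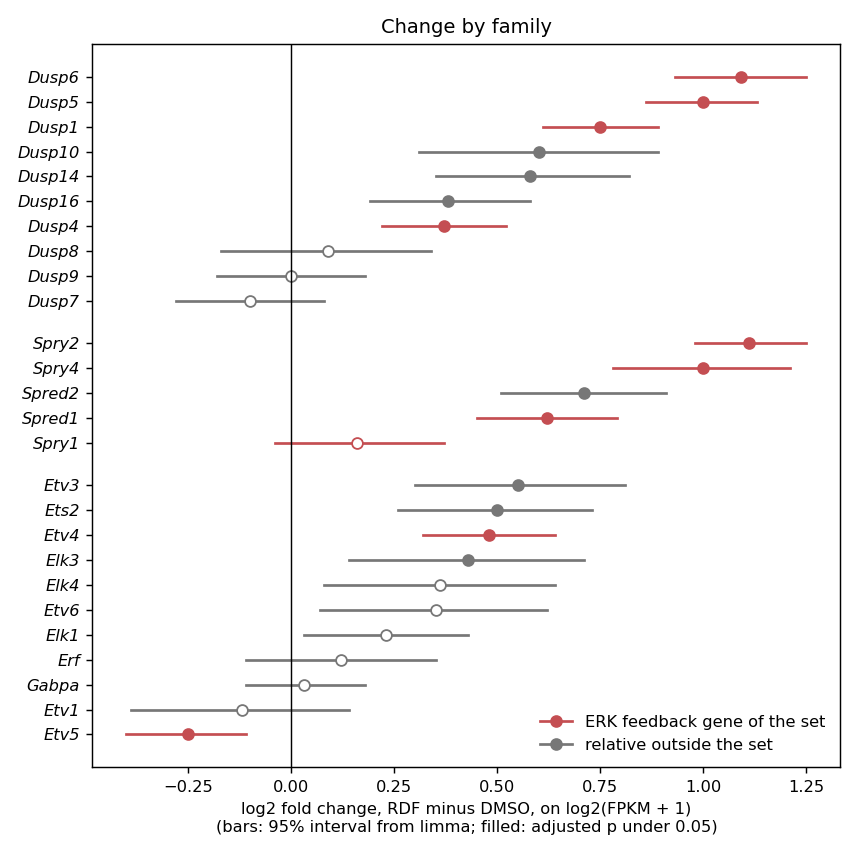
Log2 fold change (RDF minus DMSO, on log2(FPKM + 1)) of the members, in red, and of the tested relatives of each family, in grey. Bars are 95% intervals from limma and filled points have an adjusted p under 0.05; the rises of Spry2, Dusp6, Dusp5 and Spry4 lead, Spry1 crosses 0 and Etv5 lies below it.

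In DMSO the order of the mean levels was Dusp1 (196 FPKM), Etv5 (66.1), Etv4 (47.1), Dusp4 (40.1), Dusp5 (21.9), Spry2 (20.3), Spry1 (12.5), Dusp6 (11.8), Spred1 (8.02) and Spry4 (2.99). Only the neighbours Spry1 and Dusp6 overlapped in their replicate values. In RDF the order was Dusp1 (331 FPKM), Etv4 (66.2), Etv5 (55.3), Dusp4 (52.3), Spry2 (45.0), Dusp5 (44.6), Dusp6 (26.3), Spry1 (14.1), Spred1 (12.9) and Spry4 (6.96). There Etv5 overlapped with Dusp4 and Spry2 with Dusp5. The depth, estimated from steps in the low values, was between 9700000 and 12300000 fragments per sample, which puts about 135 and 151 fragments behind the Spry4 values in DMSO and 4387 or more behind those of Dusp1. The difference between the DMSO samples in log2(FPKM + 1) had a median of 0.0382 over the members and 0.0889 over all genes tested, and that between the RDF samples 0.0822 and 0.0865.

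**Figure D4:**
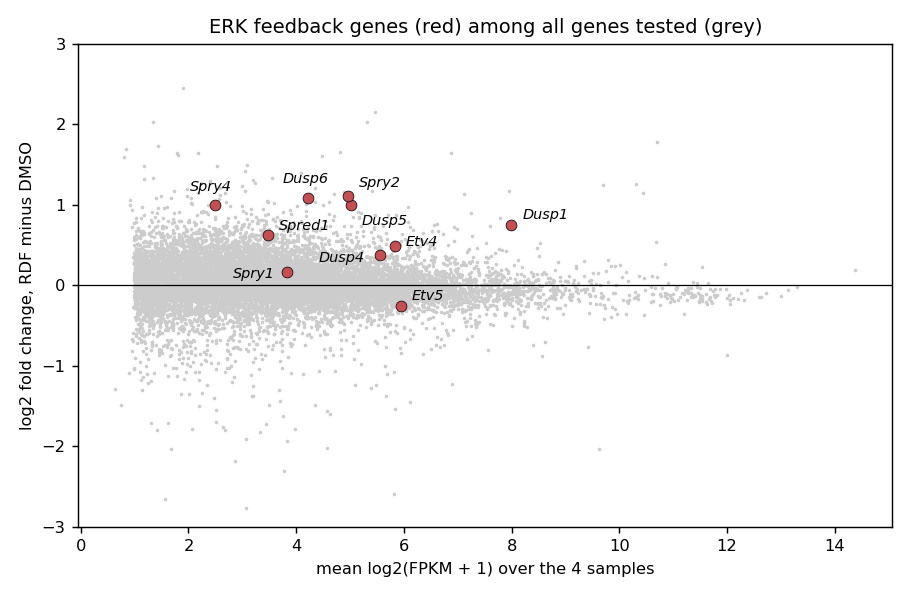
Log2 fold change (RDF minus DMSO) against the mean log2(FPKM + 1) of the 4 samples for the 11733 genes tested (grey) and the 10 members (red). Spry2, Dusp6, Dusp5, Spry4 and Dusp1 lie above most genes, and Etv5 lies below 0; 18 genes fall outside the axis.

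Relatives of the members from written lists moved in part with them. Among the 7 other phosphatase genes, 3 were called higher, 0 were called lower and 1, Dusp2, was under the filter. The shares over all genes tested were 13.3% higher and 8.28% lower. Dusp10, which encodes a phosphatase of p38 and JNK, had 1.67 and 2.12 FPKM with DMSO against 3.57 and 3.19 with RDF (log2 fold change 0.60, adjusted p = 0.0197). Dusp14 changed by 0.58 and Dusp16 by 0.38 (log2), at adjusted p of 0.0115 and 0.0232. Without the filter on low values the calls of Dusp10 and Dusp16 were lost, with adjusted p of 0.0585 and 0.0565. Both were also lost without DMSO replicate 1 (0.0547 and 0.0804), RDF replicate 1 (0.116 and 0.115) or RDF replicate 2 (0.0889 and 0.107), and that of Dusp14 without RDF replicate 2 (adjusted p = 0.0795). Dusp9, the most abundant of these genes and an ERK phosphatase with high levels in ESCs, had 139 and 155 FPKM with DMSO against 141 and 152 with RDF. Its groups overlapped completely, and the 95% interval of its log2 fold change ran from -0.18 to 0.18. Dusp7 and Dusp8 had log2 fold changes of -0.10 and 0.09, with adjusted p of 0.376 and 0.579. Of the remaining Sprouty and Spred genes, Spred2 had 7.51 and 7.09 FPKM with DMSO against 11.9 and 13.2 with RDF, a log2 fold change of 0.71 (adjusted p = 0.00419). Spred3 was below 1 FPKM in every sample and Spry3 was listed at 0 in all 4.

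The third PEA3 factor, Etv1, had 3.09 and 3.59 FPKM with DMSO against 2.80 and 3.16 with RDF, and was not called (log2 fold change -0.12, 95% interval from -0.39 to 0.14, adjusted p = 0.449). Of the 10 Ets factor genes outside the set, 9 were tested and 3 were called higher, with 0 called lower. Among all genes tested, 13.3% were higher and 8.28% lower. Etv3 changed by 0.55, Ets2 by 0.50 and Elk3 by 0.43 (log2), at adjusted p of 0.0166, 0.0177 and 0.0473. All 3 calls were lost without the filter on low values, with adjusted p of 0.053, 0.0523 and 0.0738, and without RDF replicate 2, with adjusted p of 0.0953, 0.112 and 0.198. The call of Ets2 was also lost without RDF replicate 1, and that of Elk3 without any single sample. Elk3 further lost its call with median-ratio scaling (adjusted p = 0.0529), quantile normalization (0.0604), a pseudocount of 0.1 (0.051) and a replicate block (0.0541). The others, Etv6, Elk1, Elk4, Gabpa and Erf, had log2 fold changes between 0.03 and 0.36 and were not called.

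Many other transcripts known to respond to ERK were higher in RDF as well. Of 16 such genes, 15 were tested, 10 were called higher and 0 were called lower, with a median log2 fold change of 0.61. Over all genes tested, 13.3% were called higher and 8.28% lower. Which signal raised these transcripts was not tested. Egr1, an immediate early zinc finger factor, had 19.0 and 18.5 FPKM with DMSO against 74.4 and 84.8 with RDF, a log2 fold change of 2.03 ± 0.0753 (SE) at an adjusted p of 0.000174. Its relatives Egr2 and Egr3 rose from means of 0.961 and 0.353 FPKM to 5.11 and 2.79 FPKM, with adjusted p of 0.000678 and 0.00129. About 5.24 and 5.10 fragments stand behind the Egr3 values in DMSO, so the size of its rise is known only roughly. Phlda1, which encodes a pleckstrin homology domain protein, rose from 4.78 and 4.94 FPKM to 13.3 and 13.7 FPKM (log2 fold change 1.31, adjusted p = 0.000615). Fos and Ier2, immediate early genes, changed by 0.73 and 0.74 (log2), at adjusted p of 0.00129 and 0.00164. Myc and Ccnd1, which promote proliferation, were not called. The log2 fold change of Myc was 0.35 (adjusted p = 0.0696). Ccnd1, which encodes cyclin D1, had 20.6 and 22.6 FPKM with DMSO against 18.8 and 19.7 with RDF, with a 95% interval of its log2 fold change from -0.33 to 0.02.

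As Forskolin raises cyclic AMP, transcripts known to respond to cyclic AMP through CREB were listed beside the members. Of 11 genes, 6 were tested, 3 were called higher and 0 were called lower, with a median log2 fold change of 0.59. The shares called over all genes tested were 13.3% higher and 8.28% lower. The 3 genes not called were Nr4a2 (log2 fold change 0.57), Per1 (0.18) and Crem (-0.11). Nr4a2 had 0.715 and 0.633 FPKM with DMSO against 0.901 and 2.26 with RDF, and passed the filter through RDF replicate 2. The median thus rests on few genes and partly on 1 sample. Nr4a1, an orphan nuclear receptor gene, had 22.9 and 24.4 FPKM with DMSO against 41.9 and 45.1 with RDF (log2 fold change 0.86, adjusted p = 0.00154). Sik1, which encodes a kinase that restrains CREB coactivators, had 24.0 FPKM in both DMSO samples and 38.4 and 43.1 FPKM in RDF (log2 fold change 0.74, adjusted p = 0.00259). The log2 fold change of Dusp1 was 0.75. Fosb changed by 0.60 on the log2 scale (adjusted p = 0.0106), a call lost without RDF replicate 2 (adjusted p = 0.0755). The 3 components of RDF were given together, so their parts in any of these changes cannot be told apart.

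Most genes of the pathway from FGF receptor to ERK were not called, as was the case for most of all genes tested. Of 28 genes, 27 were tested, 7 were called higher and 0 lower, against 13.3% higher and 8.28% lower over all genes tested. The median log2 fold change was 0.03, equal to that of all genes tested. Fgf4, the main FGF of ESCs, had 45.9 and 44.3 FPKM with DMSO against 57.1 and 59.8 with RDF (log2 fold change 0.37, adjusted p = 0.00913). Fgfr3 was higher by 0.58, the adaptor gene Frs2 by 0.44 and the scaffold gene Ksr1 by 0.46 (log2), at adjusted p of 0.00558, 0.0148 and 0.0411. Fgfr2 and Sos1 were higher by 0.44 and 0.34, with adjusted p of 0.0409 and 0.0443. The calls of Ksr1, Fgfr2 and Sos1 were lost with quantile normalization, with adjusted p of 0.0548, 0.0606 and 0.0717, and when replicate numbers were added to the fit as a block. Ksr1 and Sos1 also lost theirs without the filter on low values (adjusted p of 0.0797 and 0.0957), and Sos1 with median-ratio scaling (0.0536). Without RDF replicate 1 or 2 the calls of these 6 genes were all lost, with adjusted p of 0.0559 or 0.0755 for Fgf4, 0.0559 or 0.0576 for Fgfr3 and 0.0649 or 0.0968 for Frs2. The calls of Fgfr2 and Sos1 were also lost without DMSO replicate 1 (adjusted p of 0.0813 and 0.131), and those of Ksr1, Fgfr2 and Sos1 without DMSO replicate 2 (adjusted p of 0.129, 0.106 and 0.0945). Fgfr1 had 9.95 and 9.96 FPKM with DMSO against 9.52 and 10.9 with RDF, which overlap. Mapk3, which encodes ERK1, was not called, with a log2 fold change of -0.20 (adjusted p = 0.0827).

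Negative regulators of other families showed no common direction. Of 12 genes tested, 2 were called higher and 1 lower, with a median log2 fold change of 0.00. These counts are near the shares over all genes tested, 13.3% higher and 8.28% lower. Errfi1, which encodes an inhibitor of the EGF receptor, had 22.9 and 21.0 FPKM with DMSO against 35.8 and 38.5 with RDF (log2 fold change 0.73, adjusted p = 0.00258). Nf1, the gene of neurofibromin, changed by 0.43 on the log2 scale (adjusted p = 0.0334), a call lost without the filter on low values, with an adjusted p of 0.0629, and without any single sample, with an adjusted p between 0.0776 and 0.146. Il17rd, which encodes the FGF receptor inhibitor Sef, went the other way, from 4.32 and 5.03 FPKM in DMSO to 2.06 and 2.57 FPKM in RDF. Its log2 fold change was -0.78 ± 0.121 (SE) at an adjusted p of 0.0096, and without RDF replicate 1 the adjusted p was 0.0672. Il17rd and Etv5 were thus the genes called lower among the members and the lists of the ERK pathway. Counted together, the 76 other genes of these lists held 26 higher and 1 lower of 70 tested, against 13.3% and 8.28% of all genes tested.

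**Figure D5:**
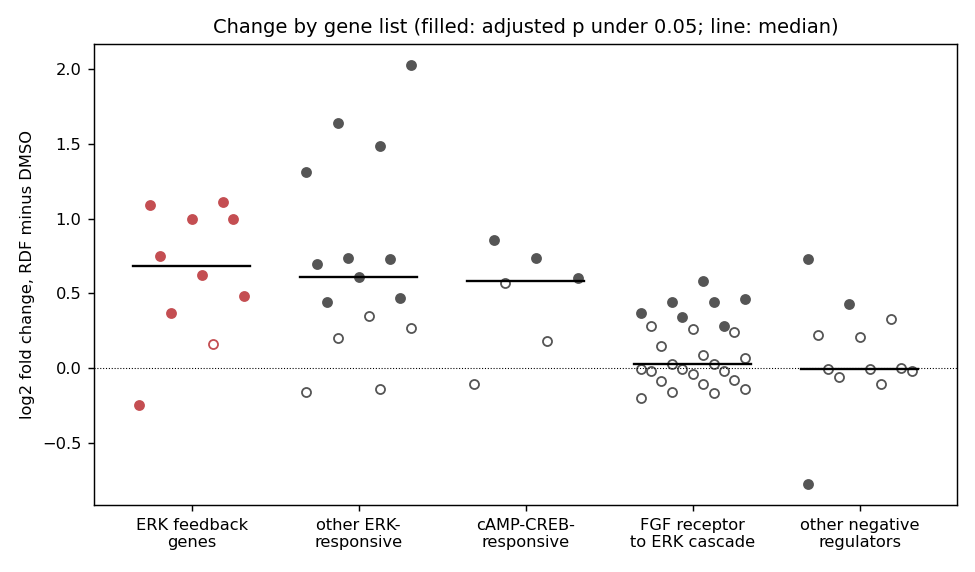
Log2 fold change (RDF minus DMSO) of the 10 members (red) and of the tested genes of 4 written lists (dark grey); each point is a gene, filled with an adjusted p under 0.05, and lines are medians. The medians were 0.69 for the members, 0.61 for the other ERK-responsive and 0.59 for the cAMP-CREB-responsive transcripts. Those of the cascade (0.03) and of the other negative regulators (0.00) were lower.

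The genes nearest to Spry2 in their pattern over the 4 samples were Dner, Cyr61 and Dmrt1, by Euclidean distance between log2(FPKM + 1) values centred on each gene, with distances of 0.0584, 0.0621 and 0.0701. Cyr61, which encodes a secreted matrix protein, had 90.1 and 96.2 FPKM with DMSO against 200 and 210 with RDF. The nearest to Etv5 were 4933408J17Rik, Itgav and Glul, with distances of 0.0129, 0.0138 and 0.0162. The 4 samples are the only points behind these distances, and of the last 3 genes only Glul was called (adjusted p = 0.0282).

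The cell type given by the labels was checked against markers. All 8 pluripotent stem cell markers were above 1 FPKM, and their summed level was 7118 and 7102 FPKM with DMSO against 4692 and 4205 with RDF. Of these 8 genes, 4 were called higher (Zfp42, Klf4, Tfcp2l1 and Sox2) and 2 lower, with a median log2 fold change of 0.23. The lower sum lies in those 2 genes, as Dppa5a went from a mean of 5516 to 3035 FPKM and Pou5f1 from 1254 to 985 FPKM. Of 10 fibroblast markers, listed since the labels name feeder cells, 7 were tested. Among them, 1 was called higher (Dcn) and 4 were called lower (Col1a1, Postn, Col1a2 and Thy1). For both lists, the shares over all genes tested were 13.3% higher and 8.28% lower. The summed level of all 10 was 43.3 and 42.4 FPKM with DMSO against 29.7 and 31.0 with RDF, with 0 of the 10 at 0 in all samples. The lower sum lies mainly in the 4 genes called lower. Dcn went from a mean of 1.57 to 7.04 FPKM, so the list did not move in one direction. The 6 primitive endoderm markers summed to between 5.84 and 10.2 FPKM and the 6 trophoblast markers to between 13.2 and 20.4 FPKM, both higher in the RDF samples. The part of other cell types in the changes of the members was not tested. In bulk samples, a change in the number of cells that express a gene and a change of its RNA per cell cannot be told apart.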

How the data were processed

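For each of the 4 samples the authors prepared a strand-specific mRNA library, starting from 150 ng of RNA, for Illumina sequencing. Reads were mapped to mm9 with TopHat2 2.0.14 and Bowtie2 2.1.0, and expression was estimated with Cufflinks 2.2.1 (versions from the submitters' processing notes). The deposited values are FPKM per gene symbol, scaled by the authors to transcript length and library size. Their handling of strand and of fragments shared by paralogs is not given in the sources used here. FPKM are not counts, so no count test was run.

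Here, samples were grouped by their labels (2 DMSO, 2 RDF). Genes whose mean reached 1 FPKM were tested on log2(FPKM + 1) with limma 3.58.1 in R 4.3.3 (lmFit, eBayes with a mean-variance trend), without a block, with Benjamini-Hochberg adjustment and a threshold of 0.05, two-sided. The fit was also run on simulated data, which cannot show whether the samples of a group are technical replicates. The outcome of that run is not used as support here. No exact permutation test was used, since with 2 against 2 samples its smallest two-sided p is 0.333. Members and lists were chosen with earlier results of these data known, so lists are described by counts and medians. From the lists, all relatives of the 3 families, up to 6 called genes of each other list by size, and a few preset genes were named, of which 1 is not reported here, with the 3 nearest patterns to the members with the largest rise and fall. Depth was estimated from genes with a single transcript of at least 1500 nucleotides, of whose low values between 43.5% and 48% lay within 0.1 of a whole fragment, and fragments per gene use the longest transcript. Both are approximate and cover counting error only. Positions are those of NCBIM37 (mm9). Hras is listed as Hras1. The alternatives were 3 other scalings, a pseudocount of 0.1, other filters, no trend, a replicate block and the omission of each sample.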

Additional observations from a re-analysis of the deposited data

How the results depend on the processing

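Across 12 alternatives, 6 members (Dusp1, Dusp5, Dusp6, Spry2, Spry4 and Spred1) kept their call and direction wherever they were tested, and the mean of at least 5 FPKM removed Spry4. Spry1 was called in none of the 12. The count of members called lower, Etv5 alone, went from 1 to 0 with the scaling to a sum of 1000000, without the filter on low values and without the mean-variance trend, and to 0 in each of the fits that left out a sample (range 0 to 0). Without the filter, 942 genes were called higher and 606 lower among all 18012. With a mean of at least 5 FPKM, where fewer genes were tested, the other ERK pathway genes called were 16 higher and 0 lower, and the median of the members was 0.62.

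Leaving out a sample lowered counts most for the RDF samples. The range over the 4 omissions was 6 to 8 members called higher, 8 to 22 other ERK pathway genes higher and 0 to 1 lower, and 253 to 1121 genes higher and 195 to 731 lower over all genes. In these fits the lone sample of a group is assumed to vary like the other group, and the cause of the loss beyond fewer samples was not tested. Without RDF replicate 1 the counts over all genes were 358 and 235, and without RDF replicate 2 they were 253 and 195.

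When replicate numbers entered the fit as a replicate block, the members called were 8 higher and 1 lower, and 1651 genes were higher and 1066 lower. The block ended the calls of Elk3, Ksr1, Fgfr2 and Sos1, with adjusted p between 0.0536 and 0.0541. No label describes pairs. Across genes, which are no independent replicates, the deviation of replicate 1 from its group mean in DMSO against that in RDF gave r = 0.134 (Pearson) and rho = 0.114 (Spearman).

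Genes with values near 0 changed sign without being called. Gabpa went to 0.00 (below 0 before rounding) with median-ratio scaling. Dusp9 went to 0.04 with the scaling to a sum of 1000000 and with quantile normalization, and lay between -0.08 and 0.08 when a sample was left out. Fgfr1 went to -0.02 with quantile normalization and lay between -0.06 and 0.12 when a sample was left out. Median-ratio scaling gave 1333 genes higher and 1181 lower. With 2 samples per group, a change as small as that of Etv5 or Spry1 is at the limit of what these data can show.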
